A study of Mus musculus with 12 samples.

Results

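L1Md_T is one of the evolutionarily young LINE-1 (L1) subfamilies of the mouse, and its RNA was followed here over the single genomic copies that carry this name. The loci were the 9583 rows annotated L1Md_T in each of the 3 tables of single repeat loci, which is 1.23% of the 781935 repeat loci listed. The row of the L1Md_T subfamily in a separate table, which sums reads over all copies, was added. RNA-seq had been carried out on testes of 3-month-old C57BL/6 mice, and all groups shared the *Mael*-/- genotype. TOTAL was the testis extract in EDTA at 10 mM, INPUT the pool of sucrose gradient fractions 5 to 8 of such an extract, IP the RNA brought down from INPUT with anti-ORF1p, and BO the RNA held by beads incubated with INPUT without antibody. Each group had 3 libraries, described as biological replicates, and no *Mael* wild type or heterozygous library is among the 12.

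A full-length L1 encodes ORF1p, an RNA-binding protein that coats L1 RNA, and ORF2p, an endonuclease and reverse transcriptase. The proteins preferentially bind the RNA they were translated from and form a ribonucleoprotein (RNP), the intermediate of retrotransposition. Most genomic copies of L1 are cut short at the 5′ end and cannot encode both proteins. In male germ cells the piRNA pathway, to which MAEL belongs, keeps young L1 copies silent, and in its absence L1 RNA and ORF1p accumulate in spermatocytes. The comparisons of IP with BO, INPUT and TOTAL ask which RNAs are held in ORF1p complexes beyond what beads hold, beyond the gradient fractions and beyond the tissue.

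Reads of *Mael* itself were almost absent, with the authors' mean at 0.65 normalized counts in TOTAL, 0.502 in BO and 0 in INPUT and IP. Markers of the labelled tissue were present in TOTAL. The 6 spermatocyte markers had means between 202 and 9433, the 5 spermatogonial markers between 92.6 and 2147, the 5 Sertoli cell markers between 149.6 and 10791 and the 5 Leydig cell markers between 1744 and 29894. The 5 spermatid markers were listed between 11.7 and 39.3. Reads on repeat subfamilies numbered from 1712212 to 3512997 per library in BO, 1384904 to 2003193 in IP, 3045169 to 3880641 in INPUT and 6021800 to 7282171 in TOTAL.

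The RNA of the L1Md_T subfamily was higher in every IP library than in any library of the other groups. In TOTAL its normalized counts were 31895, 21765 and 21772 in replicates 1, 2 and 3 (25144 ± 5846, SD, n = 3). In INPUT they were 30493, 19784 and 19585 (23288 ± 6241), and in BO 20911, 19423 and 20260 (20198 ± 746). In IP they were 111455, 84051 and 61962 (85823 ± 24794). IP did not overlap with any other group, INPUT overlapped with TOTAL and with BO, every BO library was below every TOTAL library, and replicate 1 was the highest of its group in all 4. L1Md_T took 0.456% ± 0.218 of the subfamily reads in TOTAL, 0.806% ± 0.225 in INPUT, 0.759% ± 0.27 in BO and 4.31% ± 1.15 in IP.

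**Figure D1:**
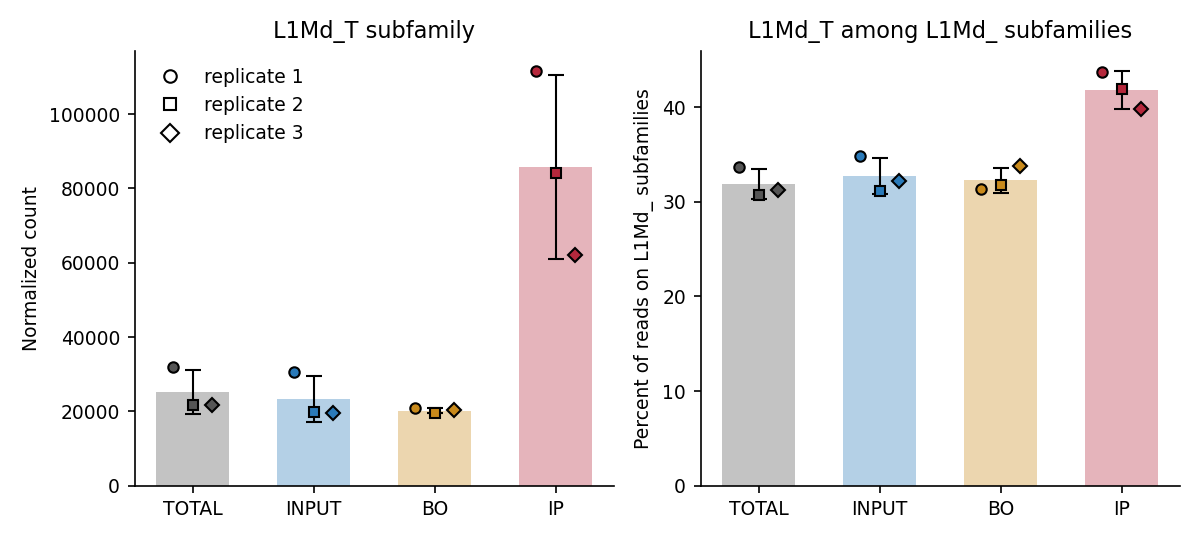
Normalized count of the L1Md_T subfamily (left) and its percent of the reads on the 6 L1Md_ subfamilies (right) in each library. Bars are means and error bars SD over 3 libraries. All 3 IP libraries lie above those of TOTAL, INPUT and BO in both panels.

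In limma's moderated test over 1180 subfamilies, L1Md_T was higher in IP than in BO by 2.05 on the log2 scale (SE 0.22, adjusted p = 2.97e-05, 3 of 3 IP libraries above all BO libraries). It was higher in IP than in INPUT by 1.87 (SE 0.22, adjusted p = 0.000102) and higher than in TOTAL by 1.75 (SE 0.22, adjusted p = 0.000198). By size it ranked 13th of 1180 against BO, 4th against INPUT and 11th against TOTAL. Of all subfamilies tested, 5.08% were called higher against BO, 3.22% against INPUT and 2.88% against TOTAL. These shares depend on the scaling and the libraries: the 60, 38 and 34 subfamilies called higher became 125, 126 and 1014 with each library scaled to its total, and the 38 against INPUT became 19 without replicate 2. A call required a log2 fold change above 1 and a limma adjusted p under 0.05.

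The other 5 subfamilies of the L1Md_ group fell into 2 kinds. L1Md_A and L1Md_Gf, the other young subfamilies, were called higher in IP in all 3 comparisons, as L1Md_T was. L1Md_F, L1Md_F2 and L1Md_F3, which are older, were called in none of the 3, since their log2 fold changes, between 0.16 and 0.67, stayed under 1. Their limma adjusted p was still under 0.05 against BO and INPUT, and for L1Md_F2 also against TOTAL (0.0341), so they were weakly higher there. Against TOTAL, limma adjusted p was 0.451 for L1Md_F and 0.311 for L1Md_F3. L1Md_T made up 31.9% ± 1.6 of the reads on L1Md_ subfamilies in TOTAL, 32.7% ± 1.92 in INPUT, 32.3% ± 1.32 in BO and 41.8% ± 1.97 in IP.

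Within a library, the ratio of L1Md_T to another subfamily does not depend on how libraries are scaled. L1Md_T exceeded L1Md_A by 1.21-fold, 1.13-fold and 1.19-fold in the TOTAL libraries and by 1.12-fold, 1.04-fold and 1.09-fold in INPUT. The ratios were 1.34, 1.34 and 1.43 in BO and 1.17, 1.12 and 1.11 in IP. The ratio was thus lower in every IP library than in every BO library, by 0.28 on the log2 scale (SE 0.041, exact two-sided permutation p = 0.1, adjusted p = 0.4 over 6 relations), and IP overlapped with INPUT and TOTAL. The smallest p that this permutation test can give for 3 against 3 libraries is 0.1, so no ratio could pass 0.05 in it, whatever its size. The difference in the log2 ratio of L1Md_T to L1Md_Gf was 0.061 against BO, -0.2 against INPUT and 0.07 against TOTAL, with exact permutation p of 0.8, 0.2 and 0.4.

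Between INPUT and TOTAL, and between BO and INPUT, no difference in L1Md_T was called. INPUT was lower than TOTAL by 0.12 on the log2 scale in limma's fit (95% interval -0.6 to 0.37, adjusted p = 0.833), where 0.339% of subfamilies were called in either direction. INPUT was below TOTAL in 3 of 3 replicate numbers, and same-numbered libraries of these 2 groups deviated together (r of 0.321 to 0.629). Of 6 different-numbered pairs, 2 also correlated over 0.1 (up to 0.331) and 4 were negative. Whether each replicate number is a pair is therefore not settled. With the replicate number as a block in a fit of INPUT and TOTAL alone, the difference of 0.12 had a 95% interval of -0.21 to -0.029 (limma adjusted p = 0.0879), it was not called, and the subfamilies called numbered 16 in place of 4. BO was lower than INPUT by 0.17 (95% interval -0.66 to 0.31, limma adjusted p = 0.615), where 5.42% of subfamilies were called (31 higher and 33 lower, and 16 and 20 without replicate 2). With each library scaled to its total in place of the upper quartile, INPUT was higher than TOTAL by 0.89 on the log2 scale, so the direction of this comparison rests on the scaling. Without replicate 1, the difference of BO from INPUT was 0.011. In such bulk RNA, fewer cells that hold an RNA and less RNA per cell cannot be told apart.

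Over single loci, the L1Md_T signal was spread thinly in all 4 groups, with no locus above 1.06% of a group's sum. These values are the authors' means over the 3 libraries of a group, on DESeq2's normalized scale, and have no SD. IP was normalized separately with BO, with INPUT and with TOTAL, so levels of TOTAL, INPUT and BO set side by side come from different tables. IP means below are those of the table with BO unless a ratio to another group is given. Length, position and strand of the loci were not analysed here, and no sequence of a locus was used. A read on a copy may stem from its own transcript or from a longer one that runs through it, and these values do not tell which.

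The 9583 means summed to 5484 in TOTAL, 5531 in INPUT, 4380 in BO and 14203 in IP. A mean above 0 was listed for 4551 loci (47.5%) in TOTAL, 4750 (49.6%) in INPUT, 3478 (36.3%) in BO and 6670 (69.6%) in IP. The median locus was at 0 in TOTAL, INPUT and BO and at 0.323 in IP, which is about what 1 read in 1 library is worth. Of the loci, 972 were at 0 in all 4 groups, 1842 were above 0 in all 4, 1606 were above 0 in IP alone and 1941 were at 0 in IP and above 0 elsewhere.

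How many loci show a read depends on how many reads there are. From the 3 scalings of the IP means, the whole reads of each IP library were recovered for every locus, the farthest value lying 0.179 from a whole number. The IP libraries, called a, b and c because they could not be tied to a replicate number, held 15064, 15115 and 18162 reads on L1Md_T loci, 48341 in all. For the other groups the value of 1 read in each library bounds the sum of reads, at 16821 to 26237 in TOTAL, 16811 to 22667 in INPUT and 8725 to 18325 in BO. Thinned to these numbers of reads, IP would be expected to show a read at 4583 to 5455 loci against the 4551 of TOTAL, at 4582 to 5165 against the 4750 of INPUT, and at 3379 to 4749 against the 3478 of BO. The numbers of INPUT and BO lay within these ranges and that of TOTAL just below its range.

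With the reads of all libraries of a group together, which are most numerous in IP, the signal was least concentrated in IP by 4 measures. The 10 highest loci held 4.95% of the summed mean in TOTAL, 4.58% in INPUT, 4.82% in BO and 3.68% in IP. The 100 highest held 19.9%, 19.1%, 21.2% and 17.9%, in the same order. To reach 50% of the signal took 567 loci in TOTAL, 622 in INPUT, 512 in BO and 672 in IP, which is between 5.34% and 7.01% of all L1Md_T loci. The effective number of loci (the inverse of the summed squared shares) was 1152 in TOTAL, 1289 in INPUT, 1093 in BO and 1493 in IP. By the share of the single highest locus, INPUT and not IP was least concentrated. That share was 1.06% in TOTAL, 0.689% in INPUT, 0.781% in BO and 0.72% in IP.

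Shallower data look more concentrated, so the single IP libraries are the closer match to the other groups in depth. In a single IP library, 45.3% ± 1.02 of the loci (SD, n = 3) had a read, the 10 highest held 3.86% ± 0.188 of the reads, the 100 highest 18.5% ± 0.196, and 610 ± 8.72 loci held 50%. At this depth the ranking depended on the measure. The share of the 10 highest ranged from 3.65% to 4% over the IP libraries, below the 4.58% to 4.95% of the other groups, and the effective number, at 1352 to 1393, was above theirs. The 600 to 616 loci that held 50% were fewer than the 622 of INPUT and more than those of TOTAL and BO. No such spread is known for TOTAL, INPUT and BO, whose libraries could not be separated, and the difference was not tested.

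**Figure D2:**
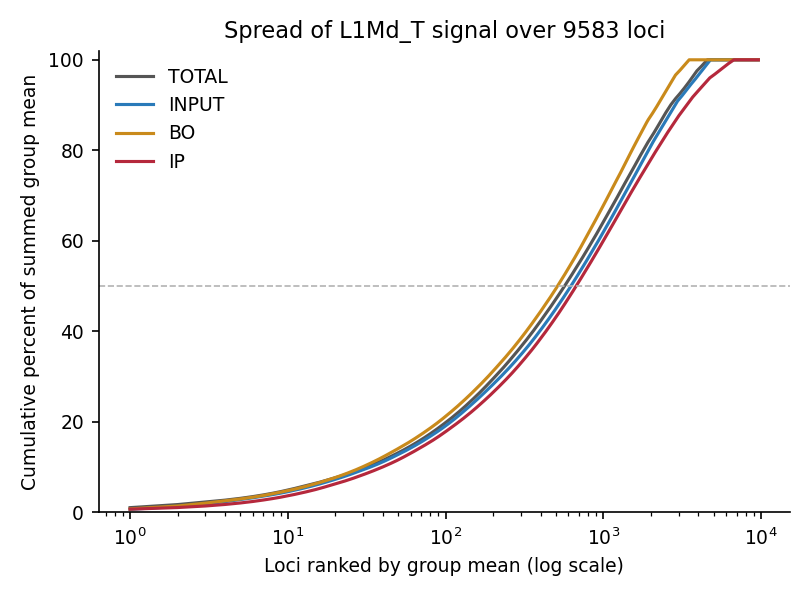
Cumulative percent of the summed group mean against the rank of the 9583 L1Md_T loci, highest first, on a log axis. Lines are the 4 groups, and the dashed line marks 50%, which is reached at 512 loci in BO, 567 in TOTAL, 622 in INPUT and 672 in IP.

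High levels were rare. A mean of at least 10 was reached by 32 loci in TOTAL, 32 in INPUT, 30 in BO and 210 in IP. A mean of at least 5 was reached by 167, 152, 115 and 697 loci, and of at least 1 by 1448, 1512, 1291 and 2990, in the same order. In BO, 1570 of the 3478 loci above 0 were no higher than the largest value that 1 read in 1 library has.

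Most IP reads lay on loci seen in every IP library. Reads were present in all 3 IP libraries at 2349 loci, which held 79.6% of the IP reads, in 2 libraries at 1645 loci (12.6% of the reads) and in 1 at 2676 loci (7.73%). Over the 277 loci with at least 30 IP reads, the variance between libraries was on average 1.61 times that of counting alone. Over the 9583 loci, Spearman's rho between IP libraries lay between 0.552 and 0.57, a description of loci of 1 antibody, 1 tissue and low counts.

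The locus tables held only part of the reads that the subfamily row counts. In IP the 48341 reads on L1Md_T loci were 23.6% of the 204948 reads of the subfamily row (Wilson 95% interval 23.4% to 23.8%, counting error only). The share was bounded at 18.3% to 28.6% in TOTAL, 20.4% to 27.4% in INPUT and 14.3% to 30% in BO, ranges that overlap with the IP value. Among IP reads of the other L1Md_ subfamilies it was 21.4% for L1Md_A, 32.9% for L1Md_Gf, 46.4% for L1Md_F, 47.3% for L1Md_F2 and 42% for L1Md_F3. Over the 359 subfamilies with at least 1000 IP reads the median was 39.2%, and 51 were below L1Md_T. How reads that match several copies were treated at single loci is not given in the sources used here, and its part in these shares was not tested.

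Signal of L1Md_A, another young subfamily called in IP, was spread over 6562 loci. It took 5.03% to 6.89% of L1Md_A loci to reach 50% of the signal over the 4 groups. In BO, 1 locus of L1Md_A held 3.56% of the signal and its 10 highest 8.9%, where L1Md_T had 0.781% and 4.82%. The 14325 loci of the older L1Md_F2 were more uneven, with 50% of the signal on 1.5% to 2.06% of the loci and up to 6.59% on a single locus (in BO). These are values of group means, with no test between subfamilies.

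Summed over loci, L1Md_T signal in IP was 3.24-fold that in BO (95% interval 3.17 to 3.32), 3.36-fold that in INPUT (3.3 to 3.42) and 3.39-fold that in TOTAL (3.33 to 3.45). The intervals take the fewest reads that each mean can hold and cover counting error only, not the spread between libraries. In the same tables the sum over all repeat loci in IP was 0.696, 0.83 and 0.596 times that in BO, INPUT and TOTAL. The median gene with a mean of at least 10 was 1.76-fold higher in IP than in BO, and its ratio was 1.11 to INPUT and 0.981 to TOTAL. Relative to the median gene, L1Md_T loci were therefore 1.84-fold higher against BO, 3.03-fold against INPUT and 3.45-fold against TOTAL.

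The summed IP/BO ratio was above 1, and above the 1.76 of the median gene, in weak and strong loci alike. Loci were classed by their mean in TOTAL, which does not enter the ratio of IP to BO. The 5032 loci at 0 in TOTAL had a summed IP/BO ratio of 2.81 (2.66 to 2.96), and the 3103 loci above 0 and up to 1 had 3.52 (3.37 to 3.69). The ratio was 3.64 for the 784 loci above 1 and up to 2, 3.5 for 497 above 2 and up to 5, and 3.05 (2.86 to 3.25) for 135 above 5 and up to 10. For the 32 loci above 10 it was 2.33 (2.15 to 2.52), the lowest of the 6 classes. Loci at 0 in TOTAL held 15.6% of the IP signal and 18% of the BO signal.

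With loci classed by their mean in BO, the ratios of IP to TOTAL took the same course. The IP/TOTAL ratio was 3.12 (3.01 to 3.23) over the 6105 loci at 0 in BO, between 3.52 and 3.69 over the 4 middle classes, and 2.46 (2.31 to 2.62) over the 30 loci above 10. The IP/INPUT ratio was 3.16 (3.05 to 3.27), between 3.5 and 3.61, and 2.55 (2.39 to 2.72) over the same classes. In these 3 classings the highest class had the lowest ratio, with a counting interval below those of the middle classes. L1Md_T_3982 and L1Md_T_2612, described below, lay in it each time, with IP/BO ratios of 0.168 and 0.151 and IP/TOTAL ratios of 0.243 and 0.279. Counting intervals leave out the spread between loci, and class ratios without such loci were not computed. Whether strong loci in general had lower ratios was therefore not tested. With loci classed by their mean in INPUT, the IP/BO ratio was again lowest above 10, at 2.71 (2.51 to 2.94), but this interval overlapped with those of the classes above 5 and up to 10 (2.81, 2.64 to 2.99) and at 0 (2.84, 2.68 to 3.01). These comparisons share the IP libraries.

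**Figure D3:**
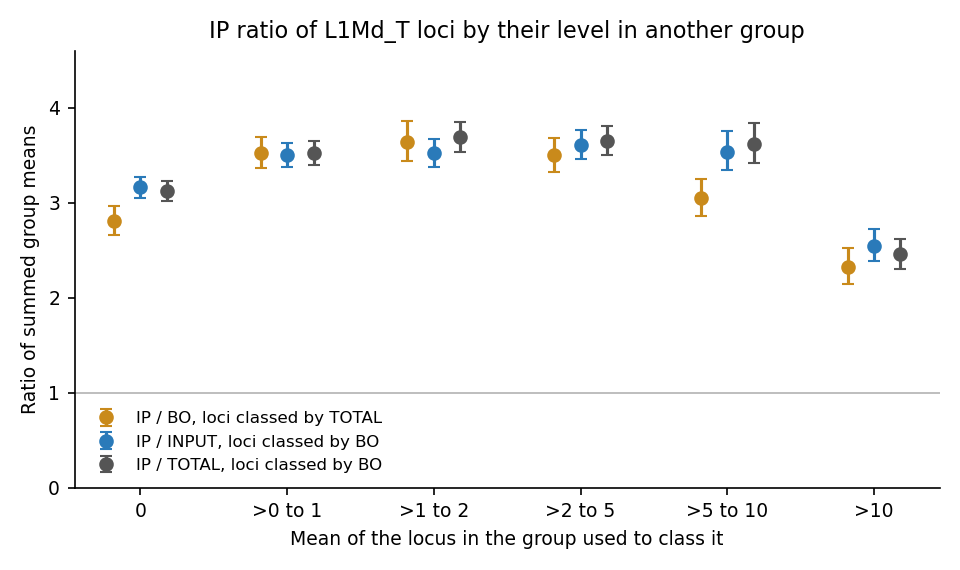
Ratio of summed group means (IP over BO, INPUT or TOTAL) of L1Md_T loci classed by their mean in a group outside the ratio. Points are ratios and bars 95% counting intervals. All lie above 1, and the class above 10 is the lowest in each comparison, between 2.33 and 2.55. The ratio of the median gene was 1.76 to BO, 1.11 to INPUT and 0.981 to TOTAL.

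Locus by locus, most of the better measured loci were over 2-fold higher in IP on the deposited scale, and against BO fewer were once the median gene was taken as the reference. Ratios here are of the mean plus 0.5. Of the 167 loci with a TOTAL mean of at least 5, 121 were over 2-fold higher in IP than in BO, 146 were higher at all and 11 were over 2-fold lower (median log2 ratio 1.59, range -3.84 to 4.89). That is 72.5%, where 18.9% of the 19645 repeat loci chosen in the same way were over 2-fold higher (median -0.38). Of the 115 loci with a BO mean of at least 5, 75.7% were over 2-fold higher in IP than in TOTAL and 79.1% than in INPUT. Among all repeat loci chosen so, 12.8% and 12.6% were. Relative to the median gene of each table, a centring added after seeing the data, 64 of the 167 loci (38.3%) were over 2-fold higher in IP than in BO, with a median log2 ratio of 0.78, beside 8.66% of repeat loci. Against TOTAL and INPUT this centring left 75.7% and 76.5% of the 115 loci, beside 13.2% and 10.5% of repeat loci.

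Loci whose mean in the 2 groups of a ratio was 10 or more reached that level mostly through IP, where 210 loci were at 10 or above beside 30 to 32 in the other groups, so no count or median over them is given.

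**Figure D4:**
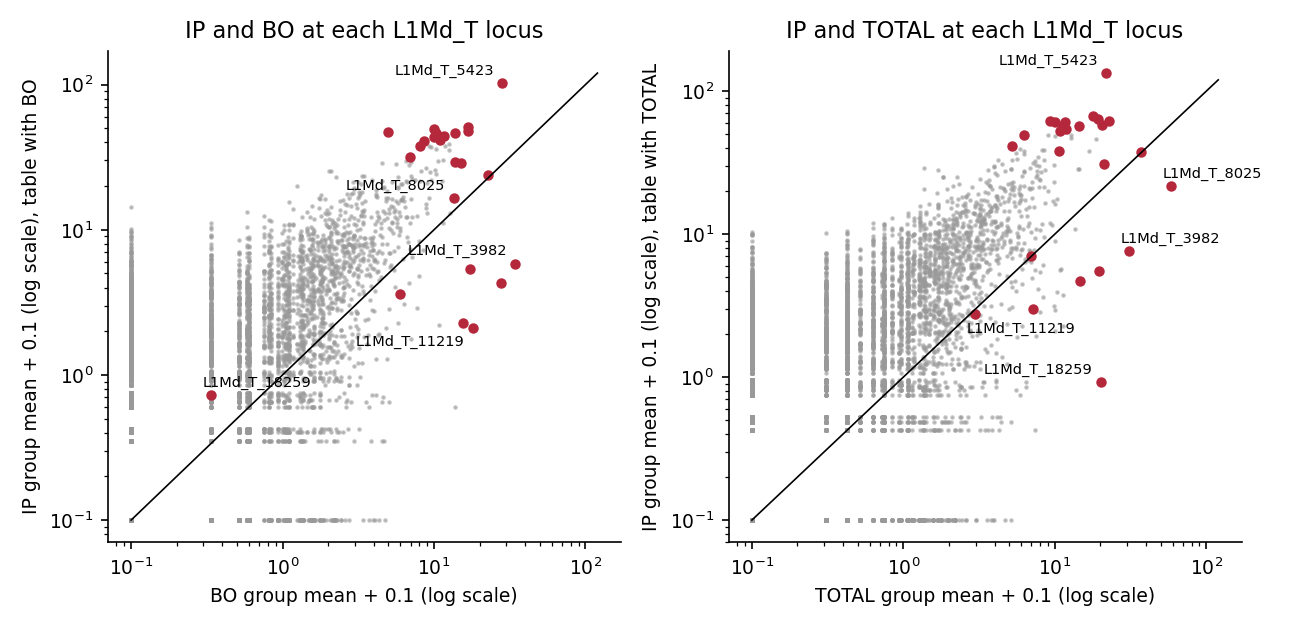
IP group mean against the BO mean (left) and the TOTAL mean (right) of each L1Md_T locus, all plus 0.1, on log axes. Red points are the loci named in the text, and the line marks equal means. Most loci lie above the line, while L1Md_T_3982 lies below it in both panels and L1Md_T_8025 and L1Md_T_18259 below it in the right panel.

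Some individual copies were well above the rest. The 10 loci highest in each group made 22 different loci, and 1 of them, L1Md_T_5423, was among the 10 of all 4 groups. L1Md_T_5423 had means of 21.8 in TOTAL, 31.6 in INPUT, 28 in BO and 102.2 in IP, the highest of all loci in IP, where it took 0.72% of the signal. Its reads in IP libraries a, b and c were 115, 101 and 133. Its level in IP was 3.65-fold that in BO (2.75 to 4.84), 4.23-fold that in INPUT (3.38 to 5.3) and 6.13-fold that in TOTAL (4.72 to 7.96), again with counting error only. It was also the only locus with a mean of at least 50 over IP and BO. The folds of the loci named by their level in a group are descriptions, since that level chose them.

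The other 9 loci highest in IP lay close together, between 43.8 and 51 in IP. L1Md_T_3237 had 17.9 in TOTAL, 17.8 in INPUT, 16.6 in BO and 51 in IP, with 42, 56 and 73 reads in the IP libraries. L1Md_T_16809 had 19.2 in TOTAL, 15 in INPUT, 9.83 in BO and 49.1 in IP, with 59, 56 and 54 reads. L1Md_T_21870 had 22.8, 16.4, 16.6 and 47.7 in that order of groups, with 68, 60 and 39 reads. These 3 and L1Md_T_5423 were above every other group's level in IP, and their order among themselves below L1Md_T_5423 differed between IP libraries.

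L1Md_T_20243 had the largest IP/BO ratio among loci with a mean of at least 20 over IP and BO, a minimum set after the values were seen. It reached that minimum only through IP, so its rank in part restates the choice and is a description. Its means were 9.17 in TOTAL, 16.2 in INPUT, 4.85 in BO and 46.9 in IP, a ratio of 9.68 to BO (5.06 to 18.5), and its reads in the IP libraries were 45, 40 and 73. Its BO mean holds only 10 to 20 reads over 3 libraries, which sets the width of that interval. The remaining 5, L1Md_T_20438, L1Md_T_22183, L1Md_T_1809, L1Md_T_10548 and L1Md_T_10823, had IP/BO ratios between 3.41 and 4.56. The largest IP/TOTAL ratios at that minimum, over IP and TOTAL, were 8.09 (4.76 to 13.7) for L1Md_T_2535 and 7.92 (4.89 to 12.8) for L1Md_T_20608. With TOTAL means of 5.13 and 6.2, both loci passed only through IP, so these ranks are descriptions too.

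**Figure D5:**
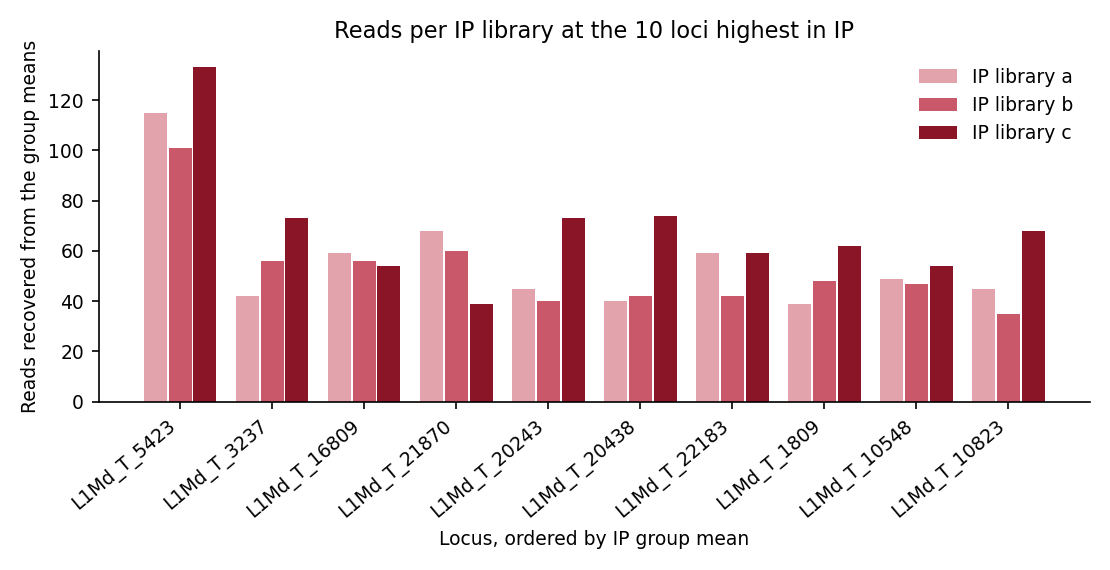
Reads of each IP library, recovered from the deposited group means, at the 10 L1Md_T loci with the highest IP mean. Bars are single libraries in arbitrary order, a to c. All 10 loci have at least 35 reads in every IP library, and L1Md_T_5423 has at least 101.

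Some of the copies with the most RNA in the tissue were not higher in IP. L1Md_T_3982 had 30.8 in TOTAL, 34.5 in INPUT and 34.2 in BO, where it was the highest locus, but 5.74 in IP, with 3, 9 and 7 reads in the IP libraries. Its IP/BO ratio was 0.168 (0.101 to 0.279) and its IP/TOTAL ratio 0.243 (0.148 to 0.397). L1Md_T_2612 had 19.5 in TOTAL, 25.3 in INPUT, 27.6 in BO and 4.17 in IP, an IP/BO ratio of 0.151 (0.0855 to 0.268). Both loci were thus lower in IP than in every other group, while the sum over loci was higher.

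L1Md_T_18259 was nearly absent from both bead samples. It had 20 in TOTAL and 20.5 in INPUT, at least 62 and 63 reads, but 0.239 in BO, which is 1 read, and 0.627 in IP, which is 2 reads. Its IP/INPUT ratio was 0.0398 (0.00973 to 0.163). L1Md_T_855 had 14.5 in TOTAL, 21.9 in INPUT, 5.88 in BO and 3.53 in IP, and its IP/INPUT ratio was 0.212 (0.117 to 0.384).

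L1Md_T_8025 was the highest locus in TOTAL. It had 58.1 in TOTAL, 15.2 in INPUT, 13.4 in BO and 16.5 in IP, so that it was lower in IP than in TOTAL (0.371, 0.275 to 0.501) with an IP/BO ratio of 1.23 (0.774 to 1.95). L1Md_T_9169, the highest in INPUT, had 37.2, 38.1, 14.9 and 28.8, with ratios of 0.99 to INPUT and 1.01 to TOTAL but 1.93 (1.28 to 2.9) to BO. L1Md_T_9779 had 21.2, 18.5, 22.6 and 23.8, and its IP/BO ratio of 1.05 (0.733 to 1.52) was the lowest of the loci with a mean of at least 20 over IP and BO. That minimum, set after the values were seen, left out loci with lower ratios, such as L1Md_T_3982 (0.168) and L1Md_T_2612 (0.151). In their own tables the ratios of L1Md_T_9779 were 1.68 (1.2 to 2.36) to INPUT and 1.47 (1.06 to 2.03) to TOTAL.

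A further group of loci was high on beads without antibody. L1Md_T_11219 had 2.88 in TOTAL, 4.91 in INPUT, 18 in BO and 2.02 in IP. L1Md_T_17913 had 6.87, 6.02, 17.2 and 5.28, and L1Md_T_12950 had 7.1, 6.51, 15.5 and 2.19. All 3 were higher in BO than in IP, with IP/BO ratios of 0.112 (0.0498 to 0.252), 0.308 (0.176 to 0.54) and 0.142 (0.0651 to 0.308). These loci were named for their BO level, so the low ratios in part restate that choice. Whether all BO libraries or a single one carried these reads cannot be read from the group means.

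Over the 253 loci with a mean of at least 5 in TOTAL, INPUT or BO, 119 (47%) were over 2-fold higher in IP in all 3 tables, beside 2.7% of the 36543 repeat loci chosen so. Another 19 (7.51%) were lower in IP in all 3, beside 44.3%. The 19 loci took 13.1% of the BO signal and 10.4% of the TOTAL signal of the 253, and 1.19% of their IP signal, a smaller share that their choice by lower IP levels fixes.

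The strongest copies were partly shared between groups. Of the 100 highest loci of each group, 59 were shared by TOTAL and INPUT, 59 by INPUT and BO, 58 by INPUT and IP, 56 by BO and IP, 51 by TOTAL and BO, and 49 by TOTAL and IP. In all 4 lists were 32 loci. Over the 9583 loci Spearman's rho between group means was 0.412 (TOTAL and BO) to 0.53 (INPUT and IP). The groups differ in depth and many loci hold a read or none, so these values describe low counts as much as levels.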

How the data were processed

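RNA was sequenced by the authors from TruSeq Stranded Total RNA libraries after Ribo-Zero depletion, 3 per group. For subfamilies, alignment by the authors used STAR v2.6.0c and the mm10 build, Telescope for ambiguous reads, and EBSeq for upper quartile normalization of the collapsed counts. This deposited signal was a whole multiple of 1 read in 100% of values (tolerance 0.1), so reads were recovered. For genes and single loci the deposited signal is the authors' mean of DESeq2-normalized counts per group (DESeq2 v1.24.0), in 802920 rows per table. How single loci were counted is not given in the sources used here. The tables' fold changes, standard errors and p-values are the authors' own comparisons and were not used.

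Subfamilies with a mean of at least 10 were tested with limma 3.58.1 in R 4.3.3 on log2 of the normalized count plus 1, in 1 fit of all 12 libraries, with Benjamini-Hochberg adjustment. On simulated data for IP against BO it called 100% of 200 subfamilies changed 4-fold among 1180. Every simulated subfamily had the same spread and changes went up or down at random, so this is not the power on the real data. Alternatives were other pseudocounts, filters and scalings, a fit of the compared groups, edgeR 4.0.16 on recovered reads, a replicate block and libraries left out. Loci could be named if among the 10 highest of a group, or among the 3 highest or 3 lowest IP ratios to BO or TOTAL at a mean of at least 50. Only 1 locus reached that, so 20 was also used, chosen after seeing the values, as were the classes by another group's level. L1Md_T_8561, L1Md_T_19595 and L1Md_T_9911 met these rules and are not described above. The members and lists were chosen with earlier results of these data known. Same-numbered libraries of INPUT and TOTAL deviated together (r of 0.321 to 0.629 over subfamilies in 3 of 3 numbers, all over 0.1), so these 2 groups were treated as paired from the data, as an added fit. Different-numbered libraries 2 and 3 of these groups also correlated, at 0.331 (TOTAL 2, INPUT 3) and 0.243 (TOTAL 3, INPUT 2). The 4 different-numbered pairs with replicate 1 were negative, so the values set replicate 1 apart more than they pair each number. In the other 5 pairs of groups at least 1 same-numbered pair was under 0.1. Read recovery was tested on 793460 simulated rows.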

Additional observations from a re-analysis of the deposited data

How the results depend on the processing

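L1Md_T was called higher in IP than in BO, INPUT and TOTAL under all 13 alternatives run for each (1 of them, without BO replicate 3, chosen after seeing the data), with log2 fold changes of 1.86 to 2.54, 1.77 to 2.42 and 1.66 to 3.3 and adjusted p up to 0.0061, 0.0184 and 0.0235. Leaving out 1 replicate number gave 1.86 to 2.26, 1.77 to 1.98 and 1.66 to 1.88. INPUT against TOTAL reversed with each library scaled to its total (0.886, adjusted p = 0.0287, limma), and BO against INPUT reversed without replicate 1 (0.011, range without 1 replicate -0.285 to 0.011). That scaling shifts the median of all subfamilies to 0.36 for IP against BO, 0.47 against INPUT, 1.49 against TOTAL and 1.03 for INPUT against TOTAL, where the upper quartile leaves -0.12, -0.06, -0.05 and 0.03. Higher and lower calls then number 125 and 17 against BO in place of 60 and 45, 126 and 18 against INPUT in place of 38 and 34, 1014 and 17 against TOTAL in place of 34 and 41, and 637 higher for INPUT against TOTAL in place of 0. With a mean of at least 100, higher calls against INPUT fell to 24, and to 25 with a pseudocount of 10; without replicate 2 they were 19. Lower calls at a mean of at least 100 were 27 against BO, 19 against INPUT and 24 against TOTAL. For BO against INPUT, the 31 higher and 33 lower calls became 20 and 17 at that mean, 20 and 21 on totals, and 16 and 20 without replicate 2. For INPUT against TOTAL, the 4 lower calls ranged from 1 to 7 with 1 replicate left out, and were 2 with no filter or without BO replicate 3.

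By the rule of all 3 same-numbered pairs over 0.1, only INPUT and TOTAL were treated as paired. BO and INPUT came near it, with same-numbered pairs at 0.0615 to 0.558 (2 of 3 over 0.1). Their different-numbered pairs lay at -0.421 to 0.224, with 4 of 6 negative. No blocked fit of BO and INPUT alone was run. Over all pairs of groups, 8 of 18 same-numbered and 9 of 36 different-numbered library pairs correlated over 0.1 (-0.142 to 0.629 and -0.511 to 0.331). With a replicate block over all 12 libraries the log2 fold changes were the same (2.05 against BO) and no call of L1Md_T changed. The ratio of L1Md_T to L1Md_Gf in IP against BO reversed without replicate 1 (-0.0084, range to 0.109) and against TOTAL without replicate 2 (-0.0091, range to 0.119). The planned medians over loci kept by their mean in a ratio's own groups are not given, since most of those loci passed through IP. The shares and numbers of loci in IP were within 0.01 percentage points or 1 locus in the other 2 tables. The shares on loci of a minimum length were not run, since lengths were not analysed here.

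Depth limits the locus values: the IP reads per locus average 5.04, and levels of TOTAL, INPUT and BO have no spread between libraries.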
